A study of Mus musculus with 24 samples.

Results

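The enzymes of serine synthesis and folate-dependent one-carbon metabolism were followed here as 9 genes: Phgdh, Psat1, Psph, Shmt1, Shmt2, Mthfd1, Mthfd1l, Mthfd2 and Tyms. They were picked by gene name from the 46078 genes of the spleen RNA-seq table, with earlier results of these data known. All 9 passed the minimum on mean level that left 16557 genes in the tests. The spleens came from male C57BL/6J mice, 20 weeks of age, and were taken when treatment ended. Each mouse had been injected with cells of BCR-ABL-driven B-cell acute lymphoblastic leukemia (B-ALL). CTRL mice ate freely and received vehicle, FMD mice received a fasting mimicking diet with vehicle, VC mice ate freely and received vincristine, and FMD+VC mice received both diet and vincristine. Each group held 6 mice, 24 in all, with 1 library per mouse. No group went without the injection of leukemia cells. The paper reports that FMD+VC mice with long survival held no tumor cells at autopsy. Whether any spleen used here was free of leukemia was not tested. The disease was made by injecting a GFP-expressing syngeneic BCR-ABL leukemia line into mice with an intact immune system, so that all tumors derive from transplanted cells of the same line. Whole spleen RNA was measured, in which fewer cells of a type and less RNA per cell cannot be told apart.

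Serine is made from a glycolytic intermediate by Phgdh, Psat1 and Psph in turn. Shmt1 in the cytosol and Shmt2 in mitochondria then split serine into glycine and a one-carbon unit carried by folate. Mthfd2 and Mthfd1l process that unit in mitochondria to formate, Mthfd1 takes formate up again into cytosolic folate, and Tyms spends a one-carbon unit on making thymidylate for DNA. Dividing lymphoid and erythroid cells draw on this pathway for purines and thymidylate.

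On the mouse genome GRCm38, with GENCODE gene models, Phgdh lies at chr3:98313170-98339990, Psat1 at chr19:15904678-15947337, Psph at chr5:129765558-129787449 and Tyms at chr5:30058202-30073617, each on the minus strand. Shmt1 lies at chr11:60788104-60811718, Shmt2 at chr10:127517123-127522444 and Mthfd2 at chr6:83305691-83325908, also on the minus strand. Mthfd1 at chr12:76255298-76319803 and Mthfd1l at chr10:3973118-4167081 lie on the plus strand. The level of Phgdh is uncertain, since 47.78% of its exonic windows of 50 bases occur in other genes or pseudogenes as well. That share was 8.82% for Psph, 5.72% for Tyms and 3.37% or less for the other 6. Psph also overlaps Cct6a on the opposite strand over 10.44% of its exonic bases. No source used here says whether reads were counted by strand, so reads of Psph and Cct6a in the overlap may not have been separated.

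Promoter sequences from RefSeq (GRCm38.p6), from 250 bases before to 50 bases after the start of transcription, were found for all 9 genes, in 10 windows. The windows of Psat1, Mthfd2 and Shmt1 lie inside the GENCODE loci given above and not at their outer ends, which were not searched. Motifs of 4 kinds were searched on both strands, and the 3 windows below are those with a single E-box and with the most CCAAT boxes. The E-box CACGTG, a sequence that Myc family proteins can bind, was found in Tyms alone among the 9 and in 7.15% of all 32851 promoters. CCAAT boxes were found in 6 of the 9 genes (Phgdh, Psat1, Psph, Shmt1, Mthfd1 and Mthfd2) and in 37.4% of all promoters. At least 3 CCAAT boxes were found in Mthfd2 and in 1 of the 2 Psat1 windows, against 3.37% of all promoters. The element TGATGNAA, which C/EBP and ATF4 dimers can bind, was found in none of the 9 and in 3.97% of all promoters. The E2F spellings TTTGGCGC, TTTCCCGC, TTTCGCGC and TTTGCCGC were found in none of the 9, and 1 or more of them in 2.26% of all promoters. In the windows below, capitals mark the E-box in Tyms and CCAAT, or ATTGG on the printed strand, in the others.
Tyms, chr5:30073576-30073875, minus strand: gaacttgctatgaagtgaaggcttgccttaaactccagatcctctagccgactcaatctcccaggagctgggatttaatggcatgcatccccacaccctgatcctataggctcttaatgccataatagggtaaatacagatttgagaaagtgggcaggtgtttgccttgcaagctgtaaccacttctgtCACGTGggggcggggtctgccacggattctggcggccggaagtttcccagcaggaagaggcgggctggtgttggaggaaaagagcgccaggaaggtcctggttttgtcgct
Psat1, chr19:15925010-15925309, minus strand: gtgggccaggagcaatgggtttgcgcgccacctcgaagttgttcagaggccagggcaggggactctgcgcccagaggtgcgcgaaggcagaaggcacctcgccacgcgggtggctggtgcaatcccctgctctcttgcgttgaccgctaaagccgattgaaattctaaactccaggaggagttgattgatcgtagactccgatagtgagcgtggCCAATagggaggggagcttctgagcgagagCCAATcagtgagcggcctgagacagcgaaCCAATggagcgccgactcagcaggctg
Mthfd2, chr6:83317555-83317854, minus strand: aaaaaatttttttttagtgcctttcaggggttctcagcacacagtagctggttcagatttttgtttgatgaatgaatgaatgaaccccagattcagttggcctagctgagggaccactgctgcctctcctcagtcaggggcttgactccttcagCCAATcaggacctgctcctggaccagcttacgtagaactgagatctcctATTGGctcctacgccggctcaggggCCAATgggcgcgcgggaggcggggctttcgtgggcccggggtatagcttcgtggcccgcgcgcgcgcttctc

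Values are regularized log2 (rlog) levels, in which 1 unit is a factor of 2 and low levels are drawn toward the mean of the gene. They are not scaled by gene length, so levels are compared between mice and not between genes. Differences are differences of group means with their standard error (SE). Genes are called lower or higher where limma's adjusted p, by Benjamini-Hochberg over all 16557 genes, is under 0.05. The file holds no read counts, so the depth per mouse is unknown and precision comes from the spread between mice. Some mice stood apart before any comparison. CTRL mouse 32 and FMD mouse 11 had the highest erythroid marker means of their groups (12.58 and 11.26) and the highest mitotic means (11.94 and 11.09). FMD+VC mouse 45 had a pre-B marker mean of 7.90, against 5.61 to 5.74 in the other 5 mice of its group. FMD mouse 9 had an Xist level of 12.43, the lowest of its group. Xist, a long RNA of the inactive X chromosome that male cells lack, was at 10.45 to 15.68 in these males. Which cells of these spleens, host or transplanted, held the Xist RNA was not tested. Spleen stromal genes were above the minimum for 4 of 5 markers, while 5 of 6 exocrine pancreas markers were below it.

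The combination of diet and vincristine was first compared with CTRL. For its autophagy genes, the paper cautions that more leukemia cells in spleens without vincristine might confound expression. The paper treats the vincristine groups, with and without diet, as comparable with each other. Pre-B marker means were 8.03, 7.41 and 7.54 in VC mice 13, 14 and 37, and 5.92, 5.68 and 5.89 in VC mice 17, 18 and 41. In FMD+VC, mouse 45 had 7.90 and the other mice 5.61 to 5.74. The part of these pre-B levels in FMD+VC minus VC was not tested. Of the 9 genes, 5 were lower in FMD+VC than in CTRL and none was higher: Tyms, Phgdh, Psat1, Shmt2 and Mthfd1l. Across all genes 20.0% were called lower in this comparison. The median difference of the 9 genes was -0.69, against -0.03 over all genes tested, and all 9 differences were below 0. In 3 of the 9, Tyms, Shmt2 and Mthfd1l, every FMD+VC mouse was below every CTRL mouse, which held for 9.62% of all genes. With the mean of the mitotic genes as a covariate 0 of the 9 were called, and 75 of all genes were called in place of 6533. With Xist as a covariate 0 of the 9 and 0 of all genes were called. Xist was 13.88 to 15.68 in CTRL and 10.45 to 12.99 in FMD+VC, and the mitotic mean did not overlap either. These 2 fits therefore cannot separate the covariate from the group, and no conclusion is drawn from the lost calls. Limma's library weights raised the count to 8 of the 9 and to 10413 of all genes.

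**Figure D1:**
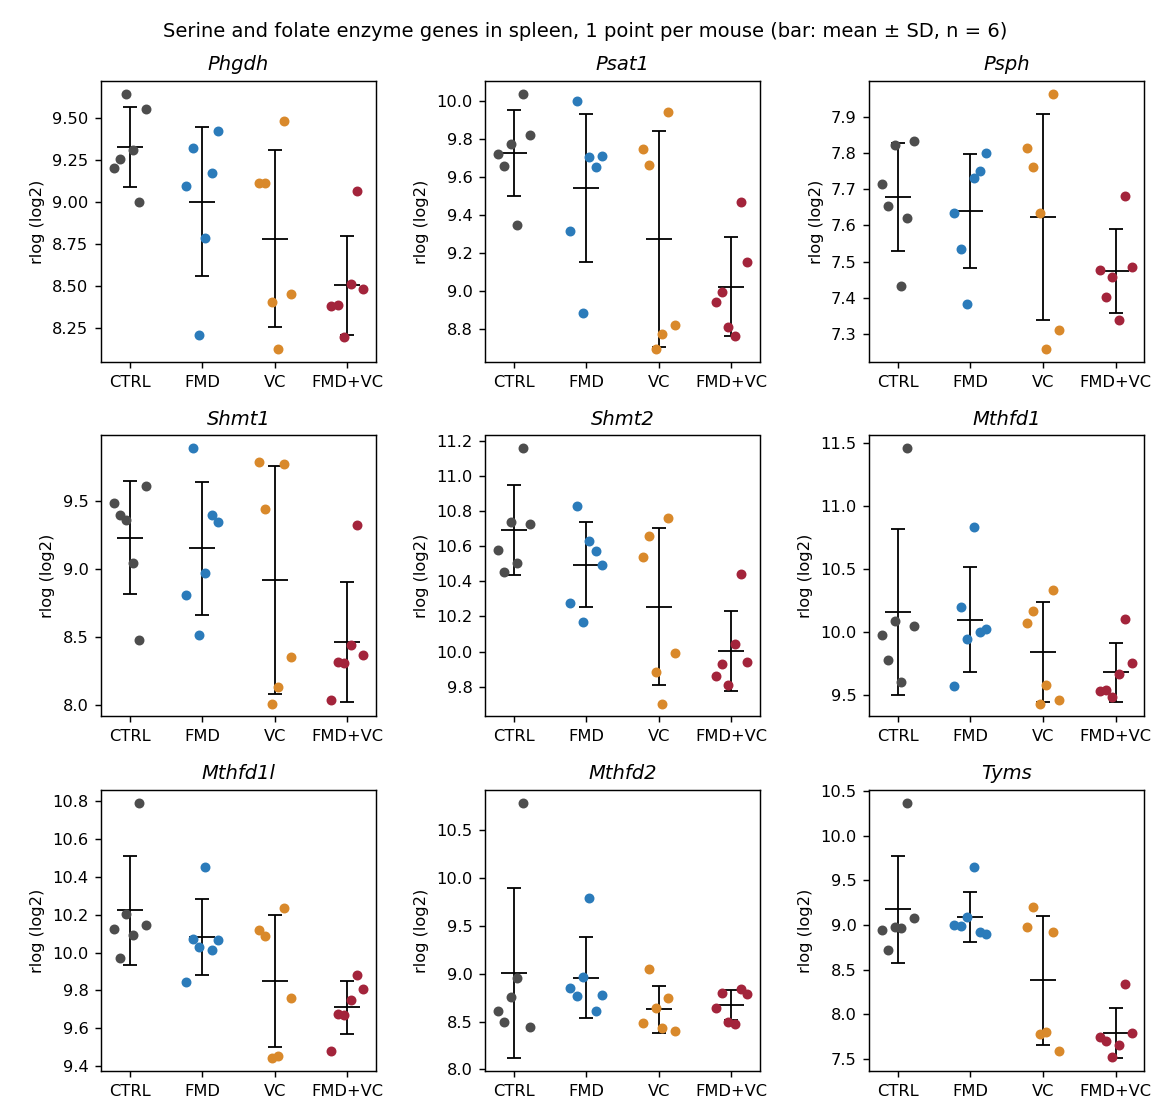
Level of each enzyme gene (vertical axis, rlog, log2) in CTRL, FMD, VC and FMD+VC (horizontal axis), with 1 point per mouse and a bar at the mean ± SD of 6 mice. Tyms in FMD+VC lies between 7.52 and 8.34, below all CTRL mice, and the VC mice spread over the ranges of both groups.

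Tyms, which makes thymidylate, differed most. In CTRL its level was lowest at 8.72, with a median of 8.97 and a highest value of 10.37. In FMD mice it ranged from 8.89 to 9.65 (median 9.00), and in FMD+VC mice from 7.52 to 8.34 (median 7.72). The CTRL and FMD+VC ranges did not overlap, and mouse 45 held the top of the FMD+VC range. Tyms was 1.38 lower on the log2 scale (log2 difference -1.38, SE 0.28, limma adjusted p = 0.000715), a level 2.61-fold lower. Its adjusted p ranged from 0.000573 to 0.00222 when each mouse was left out in turn. With the mitotic mean as a covariate the difference was -0.17 and was not called.

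Of the serine synthesis enzymes, Phgdh and Psat1 were called lower and Psph was not, and the difference between them was not tested. Phgdh, the first and committed enzyme, lay between 9.00 and 9.64 in CTRL (median 9.28) and between 8.19 and 9.06 in FMD+VC (median 8.43). The ranges met only through CTRL mouse 32 (9.00) and FMD+VC mouse 45 (9.06), and the log2 difference was -0.82 (SE 0.21, limma adjusted p = 0.00465). Psat1, the transaminase of the second step, lay between 9.35 and 10.04 in CTRL (median 9.75) and between 8.76 and 9.47 in FMD+VC (median 8.97), with a log2 difference of -0.70 (SE 0.21, limma adjusted p = 0.0112). Psat1 overlapped between the groups at a single mouse on each side. With Xist as a covariate the direction turned for both, to 0.12 for Phgdh and 0.12 for Psat1, and neither was called. Xist did not overlap between CTRL and FMD+VC, so this fit cannot separate Xist from the group. Psph, the phosphatase of the last step, lay between 7.43 and 7.83 in CTRL (median 7.68) and between 7.34 and 7.68 in FMD+VC (median 7.47). Its log2 difference of -0.21 (95% confidence interval -0.44 to 0.03) was not called.

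Of the hydroxymethyltransferases, mitochondrial Shmt2 was called and cytosolic Shmt1 was not. Shmt2 lay between 10.45 and 11.16 in CTRL (median 10.65) and between 9.81 and 10.44 in FMD+VC (median 9.93), without overlap. Its log2 difference was -0.69 (SE 0.17, limma adjusted p = 0.00301). Shmt1 lay between 8.47 and 9.61 in CTRL (median 9.38) and between 8.04 and 9.32 in FMD+VC (median 8.34). Its log2 difference of -0.76 was at least as wide, but the limma adjusted p was 0.0522. That value rested on one mouse of each group, CTRL 32 (8.47) and FMD+VC 45 (9.32): without CTRL mouse 32 the adjusted p was 0.0264, and without FMD+VC mouse 45 it was 0.0196. The call of Shmt2 and the miss of Shmt1 do not show that the genes differ. Shmt2 minus Shmt1 within each mouse, a measure chosen after the values were seen, was 1.54 ± 0.23 (SD, n = 6) in FMD+VC and 1.46 ± 0.62 (SD, n = 6) in CTRL.

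Among the folate enzymes, Mthfd1l, the mitochondrial formate-producing synthetase, lay between 9.97 and 10.79 in CTRL (median 10.14) and between 9.48 and 9.88 in FMD+VC (median 9.71). The ranges did not overlap, with a log2 difference of -0.51 (SE 0.14, limma adjusted p = 0.00764). It was no longer called with the erythroid mean as a covariate (-0.34, limma adjusted p = 0.094). Mthfd1, the cytosolic enzyme with 3 activities in mammals, lay between 9.61 and 11.46 in CTRL (median 10.01) and between 9.48 and 10.11 in FMD+VC (median 9.60). The log2 difference of -0.48 (95% confidence interval -0.99 to 0.03) was not called, and without CTRL mouse 32 it was -0.22. Mthfd2, the mitochondrial dehydrogenase that many tumors express highly, lay between 8.45 and 10.79 in CTRL (median 8.68) and between 8.47 and 8.84 in FMD+VC (median 8.72). Its log2 difference of -0.33 was not called, and without CTRL mouse 32 it was 0.02.

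**Figure D2:**
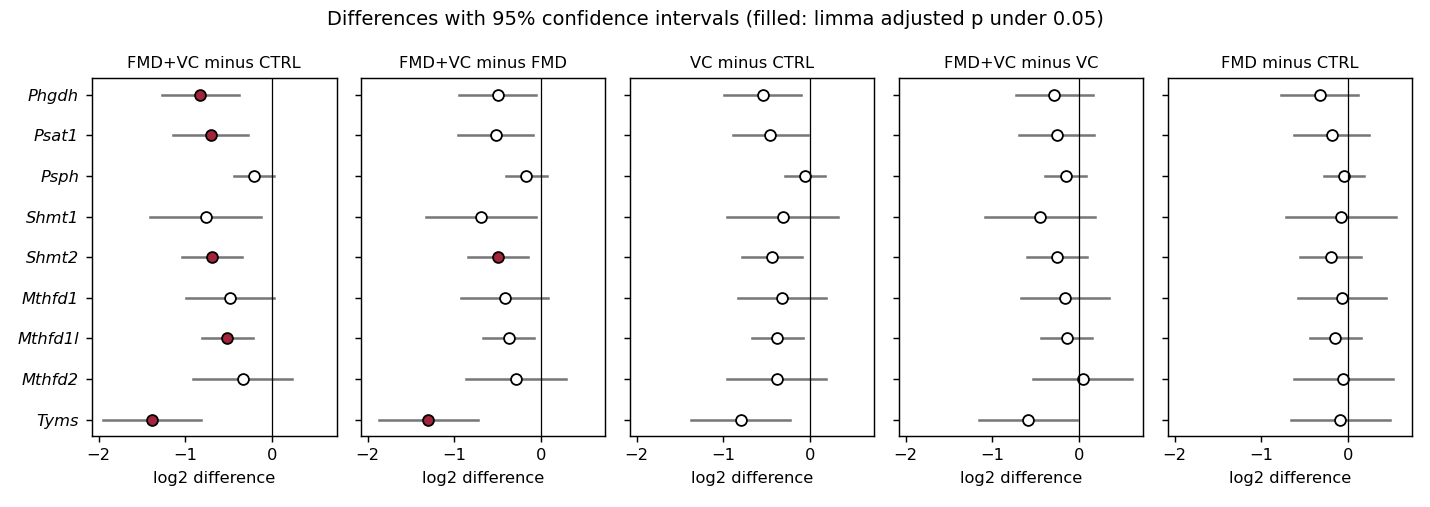
Log2 difference of each enzyme gene (horizontal axis) in 5 comparisons, with 95% confidence intervals, and filled points where limma's adjusted p was under 0.05. In FMD+VC minus CTRL 5 of 9 points are filled, in FMD+VC minus FMD 2 of 9, and none in the other 3.

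Adding vincristine to the diet was read from FMD+VC against FMD. Tyms and Shmt2 were lower and none was higher, that is 2 of 9, where 10.9% of all genes were called lower. Tyms fell by 1.30 on the log2 scale (SE 0.28, limma adjusted p = 0.00372), a level 2.46-fold lower, and every FMD+VC mouse was below every FMD mouse. No other of the 9 genes was separated in that way, which held for 5.16% of all genes. Shmt2 lay between 10.17 and 10.83 in FMD (median 10.53) and fell by 0.49 (SE 0.17, limma adjusted p = 0.0380). The Shmt2 call was lost in 9 of 12 fits that left out 1 mouse, with adjusted p-values from 0.0177 to 0.0913. With the mitotic or the Xist covariate 0 of the 9 were called and 1 of all genes in each fit, in place of 3888, and Shmt2 turned to 0.025 and 0.0308. The mitotic mean did not overlap between FMD and FMD+VC, and Xist overlapped only between 12.43 and 12.99. These fits can hardly separate the covariate from the group. The other 7 differences ran from -0.69 for Shmt1 to -0.17 for Psph. The count was 4 without FMD mouse 9, 3 without FMD mouse 7, 5 without FMD+VC mouse 45 and 1 without any 1 of the other 9 mice. FMD mouse 9 was the lowest of its group in Shmt1, Shmt2, Phgdh, Psat1 and Psph. It also had the lowest pre-B mean of its group (5.89) and the highest mature B mean (11.51), and the part of these was not tested.

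Vincristine alone against CTRL gave no call among the 9 genes, where 2.53% of all genes were called lower. Tyms lay between 7.59 and 9.20 in VC (median 8.37), with a log2 difference of -0.80 (95% confidence interval -1.37 to -0.23, limma adjusted p = 0.0727). The differences were -0.54 for Phgdh, -0.45 for Psat1, -0.44 for Shmt2 and -0.37 for Mthfd1l, with 95% confidence intervals below 0. They were -0.38 for Mthfd2, -0.32 for Mthfd1, -0.31 for Shmt1 and -0.06 for Psph, with intervals that held 0. On leaving out 1 mouse in turn, the difference ran from -0.49 to -0.03 for Mthfd2 and from -0.43 to -0.06 for Mthfd1. The VC mice did not form a single range. Tyms was 8.97, 9.20 and 8.92 in VC mice 13, 14 and 37, and 7.78, 7.81 and 7.59 in VC mice 17, 18 and 41. Mice 18 and 41 were below every CTRL mouse in all 9 genes and mouse 17 in 7, while mouse 14 was within the CTRL range in all 9, mouse 13 in 8 and mouse 37 in 7. Mice 17, 18 and 41 had Xist levels of 10.68, 10.48 and 11.11, and the other 3 had levels of 14.45 to 15.20. The count of called genes was 4 without VC mouse 37, 2 without mouse 14, 1 without mouse 13 and 0 without any of the other 9 mice. Without mouse 37 the called genes were Tyms, Shmt2, Phgdh and Mthfd1l.

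**Figure D3:**
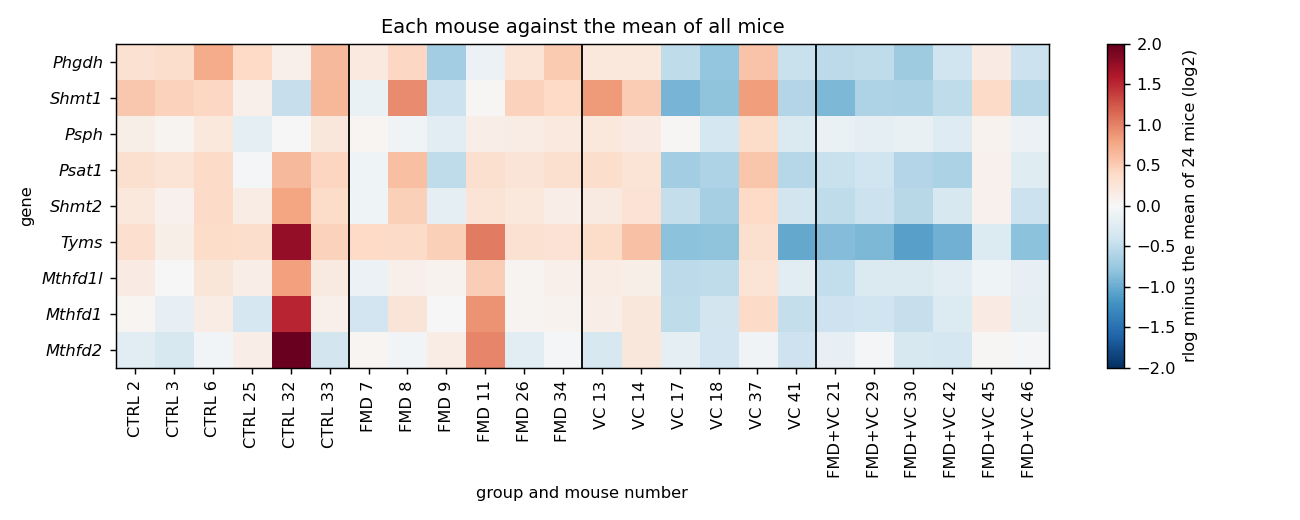
Deviation of each mouse (columns, by group and mouse number) from the mean of all 24 mice for each enzyme gene (rows), in log2 units from blue (lower) to red (higher). CTRL mouse 32 and FMD mouse 11 are high in Mthfd2, Mthfd1, Mthfd1l and Tyms, VC mice 17, 18 and 41 are low, and FMD+VC mouse 45 is the highest mouse of its group in all 9 genes.

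The diet was then compared alone and on top of vincristine. FMD against CTRL gave 0 calls among the 9 genes and among all 16557 (0% called, with 707 genes at an unadjusted p under 0.05). The differences ran from -0.32 for Phgdh to -0.04 for Psph. FMD+VC against VC likewise gave 0 calls among the 9 and among all genes (0% called, 1878 at an unadjusted p under 0.05). Its differences ran from -0.59 for Tyms (95% confidence interval -1.16 to -0.02, limma adjusted p = 0.432) to 0.05 for Mthfd2. Library weights changed this comparison to 8 of 9 genes called, with 4966 of all genes called. Those weights ranged from 0.15 for CTRL mouse 32 to 7.29 for FMD+VC mouse 29. Whether the diet's difference depended on vincristine was tested by the interaction, which called 0 of 9 and 0 of all genes (0% called, 504 at an unadjusted p under 0.05). The interaction for Tyms was -0.50, with a 95% confidence interval of -1.31 to 0.31. These intervals do not show that diet made no difference.

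Within each mouse, Tyms was also set against the other 8 genes, as a description with no test, since Tyms was chosen for its wide difference. Tyms minus the mean of the other 8 was -0.33 ± 0.40 (SD, n = 6) in CTRL, -0.28 ± 0.30 in FMD, -0.77 ± 0.34 in VC and -1.15 ± 0.10 in FMD+VC. Mthfd2 minus Phgdh, set side by side after their values were seen, was -0.32 ± 1.06 (SD, n = 6) in CTRL and 0.17 ± 0.24 in FMD+VC. The groups differed by 0.49, and by 0.91 without CTRL mouse 32.

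Marker genes of other cell types moved with these results. Of all 16557 genes, 6533 were called in either direction in FMD+VC against CTRL, and 20.0% of all genes were lower. In that comparison all 10 mitotic genes, 8 of 10 erythroid genes and 3 of 7 pre-B genes were lower. Of the mature B genes 6 of 6 were higher, and of the T cell genes 5 of 5. Neutrophil genes were lower for 5 of 7 (median -1.60) and megakaryocyte genes for 2 of 4, spleen stroma genes were higher for 3 of 4 tested, and 0 of 6 macrophage genes were called. The mitotic mean was 10.08 to 11.94 in CTRL and 8.96 to 10.01 in FMD+VC, without overlap. The erythroid mean was 7.69 to 12.58 in CTRL and 6.54 to 8.93 in FMD+VC. The neutrophil mean was 6.79 to 8.87 in CTRL and 5.19 to 8.12 in FMD+VC. The pre-B mean was 5.84 to 7.68 in CTRL (median 7.16) and 5.61 to 7.90 in FMD+VC (median 5.69). Only FMD+VC mouse 45 (7.90) reached the CTRL range, and the other FMD+VC mice, at 5.61 to 5.74, were below every CTRL mouse. No marker gene of these lists was at 0 in every mouse. The mature B mean was 9.63 to 10.57 in CTRL and 11.83 to 12.57 in FMD+VC, and the T cell mean 6.91 to 8.45 and 9.21 to 10.16. Xist fell by 3.88 on the log2 scale. The part of these shifts in the enzyme differences was not tested.

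**Figure D4:**
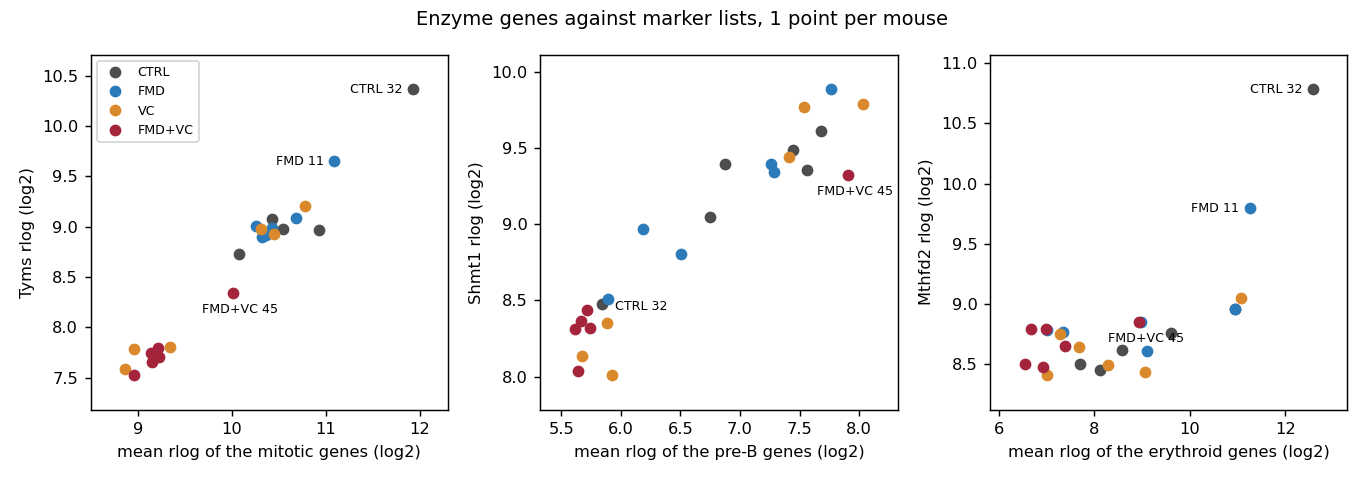
Tyms against the mean of 10 mitotic genes, Shmt1 against the mean of 7 pre-B genes and Mthfd2 against the mean of 10 erythroid genes (all axes rlog, log2), with 1 point per mouse colored by group. CTRL mouse 32 is highest for Tyms (10.37) and Mthfd2 (10.79) and low for Shmt1 (8.47), and FMD+VC mouse 45 lies apart from its group for Tyms and Shmt1.

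The 9 genes did not vary as a single block over the 24 mice. Pearson's r between 2 of them ran from -0.08 for Shmt1 with Mthfd2 to 0.94 for Shmt2 with Psat1, as a description over mice that share groups and cell makeup. CTRL mouse 32 and FMD mouse 11 were the highest of their groups in Mthfd1, Mthfd1l, Mthfd2 and Tyms. CTRL mouse 32 was at the same time the lowest CTRL mouse in Shmt1, in Phgdh and in the pre-B mean (5.84). The genes most like each enzyme differed accordingly. Tyms was most like the replication genes Cdc45 (r = 0.99), Fignl1 and Atad5. Shmt1 was most like Vash2 (r = 0.97), Ddc and Gcat, and Phgdh most like Hmga1 (r = 0.98), Acads and Idh2. Mthfd2 was most like Polh (r = 0.95), Ppp2r1b and Nars, and Mthfd1 most like Mars (r = 0.96), Lyar and Orc2. Shmt2 was most like Sae1 (r = 0.98), Pa2g4 and Trip13, Psat1 most like Ipo5 (r = 0.97), Umps and Knop1, and Mthfd1l most like Noc4l (r = 0.96), Nup107 and Strap. Psph, the least variable, had no gene above the r of 0.86 with Mex3a, followed by Dnajc2 and Lmnb2.

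Around these enzymes, 50 linked genes were listed, of which 43 were tested. In FMD+VC against CTRL 20 were lower and 3 higher, with a median difference of -0.36. Over all 16557 genes, 6533 were called in either direction in this comparison, with 20.0% of all genes lower. All 6 genes of thymidine nucleotide supply were lower (Tk1, Dut, Dtymk, Dctd, Rrm1 and Rrm2), with a median of -1.01. Dctd, which feeds the Tyms substrate, fell by 1.21 (SE 0.38, limma adjusted p = 0.0146). Of 6 purine synthesis genes, Ppat, Gart, Pfas and Paics were lower and Adsl and Atic were not called. In folate handling, Fpgs and the reduced folate carrier Slc19a1 were lower, and the proton-coupled folate transporter Slc46a1 was higher (0.68, SE 0.17, limma adjusted p = 0.00355).

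The glycine cleavage system did not move one way. Gldc, the glycine decarboxylase, fell by 3.06 (SE 0.62, limma adjusted p = 0.000798), and Gcsh and Dld were lower as well. Amt, the aminomethyltransferase of the same complex, was higher by 0.49 (SE 0.16, limma adjusted p = 0.0218). Among the other folate genes, the mitochondrial dehydrogenase Aldh1l2 was higher by 0.72 (SE 0.21, limma adjusted p = 0.00935), Mthfd2l was lower, and 5 of 7 were not called. Ahcy of the methionine cycle, the mitochondrial serine carrier Sfxn1 and the regulator E2f1 were lower. The regulators Atf4, Myc and Nrf1 were not called. In VC against CTRL Gldc was lower, close to the threshold (log2 difference -2.05, SE 0.62, limma adjusted p = 0.0497). Of the linked genes, 12 were lower in FMD+VC against FMD and none higher, where 10.9% of all genes were lower. In FMD+VC against VC and FMD against CTRL none was called, as over all genes.

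**Figure D5:**
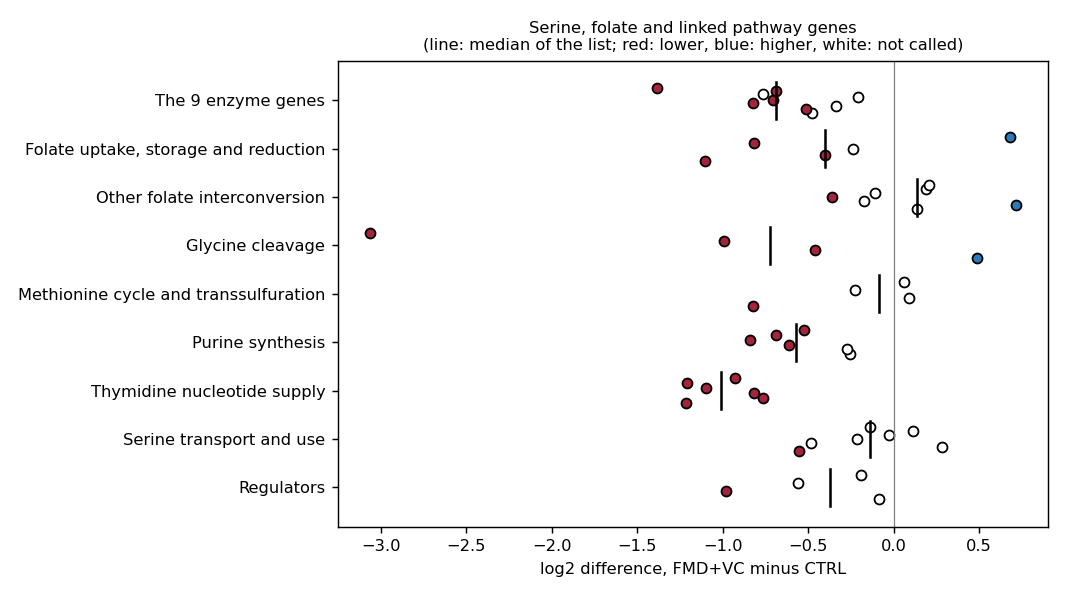
Log2 difference in FMD+VC minus CTRL (horizontal axis) for the 9 enzyme genes and 8 lists of linked genes (vertical axis), with a line at the median of each list. Red points are genes called lower, blue points genes called higher and white points genes not called. All 6 thymidine supply genes are red, and Slc46a1, Aldh1l2 and Amt are the 3 blue points.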

How the data were processed

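Spleen RNA of 24 mice was depleted of ribosomal RNA and sequenced. According to the study's methods and the submitters' processing notes, reads were mapped to GRCm38 with HISAT2 2.1.0 and counted per gene with HTSeq 0.6.1. The notes also name GRCh38. The deposited values are log2 values, which the authors made from gene counts with the regularized logarithm of DESeq2. The file holds no counts, so the test on counts that the study used was not run, and the depth per mouse is unknown.

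Groups were taken from the sample titles. A minimum mean rlog of 3.32 (log2 of 10) kept 16557 of 46078 genes. Linear models of limma (version 3.58.1, R 4.3.3) took all 24 mice with 4 group means, 20 residual degrees of freedom and a trend of variance with mean, for 6 comparisons, adjusted by Benjamini-Hochberg at 0.05. The test was also run on simulated data. P-values set a difference of group means against the spread between mice. Limma took that spread for each gene over all 4 groups together and drew it toward the trend. Within-mouse differences between the genes were chosen after the values were seen. Exact permutation tests of them (15) were computed but are not used, and their values are given as a description.

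The 9 genes and the lists of linked genes and markers were chosen with earlier results of these data known. All 9 genes were tested in every comparison, and some of them are given there only within a count or a range of differences. By rule, linked genes are given as counts with values for those named, and 3 genes are given as most like each enzyme by Pearson's r. Mat2a and Slc25a32, whose names are shared by 2 rows each, were listed but not tested. The result of 1 further listed gene is not reported here, though the counts over the lists include it. Alternatives were 2 other minimums, quantile normalization, only the groups compared, library weights, 4 covariates (mitotic, erythroid, Vpreb1 with Igll1, and Xist) and leaving out each mouse. Chosen after seeing the data were 2 fits without the mice that stood apart. Motifs were counted in RefSeq promoters of 300 bases, and Python 3.11.15 and matplotlib 3.10.9 were used. Gene models were those of GENCODE for GRCm38.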

Additional observations from a re-analysis of the deposited data

Results flagged for a closer look

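In 36 gene and group combinations, 11 had a highest mouse whose gap to the next exceeded what Dixon's criterion allows for 6 values at 95%, where chance alone flags about 1 in 20. The 11 came from 3 mice, and the 9 genes are not independent of each other. CTRL mouse 32 lay apart at 11.46 for Mthfd1, 10.79 for Mthfd1l, 10.79 for Mthfd2 and 10.37 for Tyms. FMD mouse 11 lay apart at 10.45 for Mthfd1l, 9.80 for Mthfd2 and 9.65 for Tyms. Both had the highest erythroid means of their groups. FMD+VC mouse 45 lay apart at 9.32 for Shmt1, 10.44 for Shmt2, 9.06 for Phgdh and 8.34 for Tyms, and it had the highest pre-B mean of its group, 7.90. The part of these marker levels was not tested.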

How the results depend on the processing

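Counts of called genes among the 9 depended on the setting. Counts over all genes moved as well and are given beside them. In FMD+VC minus CTRL (5 called, 6533 of all genes), library weights gave 8 (10413 of all genes). The mitotic covariate gave 0 (75 of all genes), the Xist covariate 0 (0 of all genes), and leaving out 1 mouse 5 to 6. In FMD+VC minus FMD (2 called, 3888 of all genes), weights gave 8 (9339 of all genes) and only the 2 groups compared 5 (5230 of all genes). No minimum gave 1 (3535 of all genes). The erythroid covariate gave 1 (3156 of all genes) and the Vpreb1 and Igll1 covariate 1 (3016 of all genes). The mitotic and Xist covariates gave 0 each (1 of all genes in each fit). The count was 1 without CTRL mouse 32 and FMD mouse 11 (3628 of all genes). It was 5 without those and FMD mouse 9 and FMD+VC mouse 45 (4763 of all genes), and 1 to 5 on leaving out 1 mouse. In FMD+VC minus VC (0 called) weights gave 8 (4966 of all genes), and in the interaction (0 called) weights gave 1 (657 of all genes). In VC minus CTRL (0 called, 1068 of all genes) the Vpreb1 and Igll1 covariate gave 2 (2043 of all genes), and leaving out 1 mouse gave 0 to 4. FMD minus CTRL had 0 under all settings run. Tyms kept its call in FMD+VC minus CTRL and in FMD+VC minus FMD under 9 of 11 other settings, all but the mitotic and Xist covariates, and on leaving out each of 12 mice. The cause of these changes was not tested. No paired analysis was possible because the mouse numbers differ between groups. The file holds no depth, so counting error cannot be separated from the spread between mice.

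Outside leaving out 1 mouse, 83 values changed sign, most of them log2 differences that were not called. Among the called differences those that did so were Phgdh, Psat1 and Mthfd1l in FMD+VC minus CTRL and Shmt2 in FMD+VC minus FMD, each with the mitotic or Xist covariate. Xist and the mitotic mean did not overlap between CTRL and FMD+VC. Fits with these covariates cannot separate them from the group there, and no conclusion is drawn from the turned signs. With Xist as a covariate, Shmt1 was 0.66, Phgdh 0.12, Psat1 0.12 and Psph 0.17 in FMD+VC minus CTRL. In FMD+VC minus VC, Shmt1 was 0.16, Shmt2 0.0072, Mthfd2 -0.0171, Phgdh 0.13, Psat1 0.10 and Psph 0.011. Shmt1 was 0.50, Psat1 0.0167 and Psph 0.16 in VC minus CTRL. In FMD minus CTRL, Shmt1 was 0.12, Psph 0.0113 and Tyms 0.0103. Shmt1 was 0.54, Shmt2 0.0308, Phgdh 0.32, Psat1 0.19 and Psph 0.16 in FMD+VC minus FMD. In the interaction, Shmt1 was 0.0417, Shmt2 0.12, Mthfd1 0.002 and Psat1 0.17. With the mitotic mean as a covariate, Mthfd1 was 0.44, Mthfd1l 0.0262 and Mthfd2 0.58 in FMD+VC minus CTRL. Mthfd1 was 0.16 and Mthfd1l 0.0484 in FMD+VC minus VC. Shmt1 was 0.0098, Mthfd1 0.28, Mthfd2 0.21 and Psph 0.0626 in VC minus CTRL. In FMD minus CTRL, Mthfd1 was 0.0567, Mthfd2 0.0699 and Tyms 0.0733. Shmt2 was 0.025, Mthfd1 0.38, Mthfd1l 0.098, Mthfd2 0.51 and Psat1 0.0074 in FMD+VC minus FMD. In the interaction, Shmt2 was 0.0751, Mthfd1 0.10 and Psat1 0.064. With the erythroid mean as a covariate, Mthfd2 was 0.23 in FMD+VC minus CTRL. Mthfd1 was 0.0151 in FMD+VC minus VC. Mthfd1 was 0.0102, Mthfd2 0.0655 and Tyms 0.0167 in FMD minus CTRL. Mthfd2 was 0.16 in FMD+VC minus FMD. Mthfd1 was 0.0049 in the interaction. With library weights, Mthfd2 was 0.0939 in FMD+VC minus CTRL. In VC minus CTRL, Mthfd1 was 0.0567, Mthfd2 0.0268 and Psph 0.0115. Mthfd1 was 0.0967, Mthfd2 0.16 and Tyms 0.0579 in FMD minus CTRL. In the interaction, Mthfd1l was -0.27, Mthfd2 -0.09 and Phgdh -0.43. With quantile normalization, Mthfd1 was 0.0072 and Mthfd2 0.0052 in FMD minus CTRL. In the interaction, Mthfd1l was -0.0691. With the Vpreb1 and Igll1 covariate, Mthfd2 was -0.0391 in FMD+VC minus VC. In the interaction, Shmt2 was 0.0647 and Psat1 0.0834. Without CTRL mouse 32 and FMD mouse 11 together, Mthfd2 was 0.0207 in FMD+VC minus CTRL. In FMD minus CTRL, Mthfd1 was 0.0497, Mthfd2 0.14, Tyms 0.0415 and Shmt2 minus Shmt1 0.0592. Mthfd1l was -0.0371 and Mthfd2 -0.0924 in the interaction. In VC minus CTRL, Shmt2 minus Shmt1 was 0.12. Without those and FMD mouse 9 and FMD+VC mouse 45, Mthfd1 was 0.0498, Mthfd2 0.0966, Psat1 0.0056 and Tyms 0.0149 in FMD minus CTRL. In the interaction, Mthfd1l was -0.0656, Mthfd2 -0.0844 and Phgdh -0.25.

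On leaving out 1 mouse in turn, 17 results changed sign in 1 or more fits. For FMD+VC minus CTRL the ranges were Mthfd2 -0.45 to 0.0207 and Shmt2 minus Shmt1 -0.006 to 0.32. For VC minus CTRL the ranges were Psph -0.12 to 0.0179 and Shmt2 minus Shmt1 -0.23 to 0.12. For FMD minus CTRL the ranges were Shmt1 -0.23 to 0.0517, Mthfd1 -0.21 to 0.20, Mthfd2 -0.22 to 0.31, Psph -0.0893 to 0.0118, Tyms -0.20 to 0.15, Shmt2 minus Shmt1 -0.20 to 0.12 and Tyms minus the mean of the other 8 genes -0.0208 to 0.21. For the interaction the ranges were Shmt2 -0.17 to 0.0461, Mthfd1 -0.36 to 0.0494, Mthfd1l -0.11 to 0.0797, Mthfd2 -0.26 to 0.26, Phgdh -0.11 to 0.19 and Psat1 -0.20 to 0.0644.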
